A study of Mus musculus with 12 samples.

Results

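The 9 transcription factor genes described here, Tcf7, Lef1, Tcf12, Tcf3, Gata3, Runx1, Runx3, Zbtb7b and Bcl11b, were chosen by name as regulators of thymocyte fate, out of 55335 genes counted. No measured value entered their choice, but the list was drawn up with earlier results of these data known. Thymocytes, the developing T cells of the thymus, came from mice aged 6 weeks, 3 of them wild type (WT) and 3 knockout (KO) for miR-181a/b-1, a cluster of microRNA genes. RNA-seq and ribosome footprinting, which reads out the stretches of mRNA shielded by ribosomes, gave 3 libraries per genotype and assay, 12 in all, numbered 1 to 3. Cells of both genotypes were strained and kept in buffer with 0.1 mg/ml cycloheximide, a drug that halts ribosomes on mRNA. The labels name the genotype as miR-181a/b-1 KO and give no strain, sex or Cre driver. Whether an RNA-seq library and the footprint library of its number share a mouse is not stated.

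T cell progenitors in the thymus lose other fates and then pass through a stage that carries both CD4 and CD8 before becoming CD4+ or CD8+ T cells. TCF-1 (from Tcf7) and LEF-1 (from Lef1) are related HMG-box proteins that drive entry into the T lineage and survival of immature thymocytes. The E proteins HEB (from Tcf12) and E2A (from Tcf3) pair as basic helix-loop-helix factors, bind E-box sequences and are held back by Id proteins. Bcl11b, a zinc finger protein, seals T cell commitment. GATA-3 and ThPOK (from Zbtb7b) favour the CD4+ fate, whereas RUNX3 silences Cd4 in CD8+ cells and RUNX1 represses it earlier in development.

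The microRNAs that the deleted pair encodes differ in their 3' part and share a seed, the bases by which a microRNA recognises its targets. Their mature sequences from RefSeq (GRCm38.p6), with the seed (bases 2 to 8) in capitals, show what the KO cells lack from this locus.
mmu-miR-181a-5p: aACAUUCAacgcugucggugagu
mmu-miR-181b-5p: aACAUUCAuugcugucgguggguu
Both carry the seed ACAUUCA, and the same mature sequences are also encoded by the other genes Mir181a-2 and Mir181b-2, which the labels do not list as deleted. In footprints the row Mir181a-1 held 132 to 166 CPM in WT and 0.463 to 1.04 CPM in KO, where CPM are counts scaled to the library total after TMM normalization. In RNA-seq the same row held 57 reads in the libraries labelled WT and 67 in those labelled KO, so that it checks the labels of footprints only. RNA-seq libraries are therefore called here by their labels.

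RefSeq start-site windows of the 9 genes were searched for the motifs of these factor families, since several of the factors are known to bind near one another's genes. Each window ran from 250 bases before to 50 bases after a start, and all 9 genes matched, with 18 windows. The RUNX motif TGTGGT, on either strand, occurred in 1 of 2 windows of Runx1, 1 of 2 of Runx3 and 1 of 2 of Zbtb7b and in no window of the other 6 genes, against 16.8% of all 32851 windows and 18.9% of genes. In Runx1 and Runx3 the match was a pair, ACCACAGAACCACA, shown in capitals on the gene's own strand, a form noticed after the sequences were read.
Runx1, chr16:92826025-92826054, minus strand: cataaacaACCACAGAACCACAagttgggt
Runx3, chr4:135120503-135120532, plus strand: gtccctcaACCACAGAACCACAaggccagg
That paired form occurred in 4 of 32851 windows (0.0122%), namely those of Runx1, Runx2, Runx3 and Gm16225. The E-box CANNTG occurred in at least 1 window of 8 of the 9 genes, the exception being Bcl11b, against 75% of all 27025 genes with a window (72.3% of windows). The TCF/LEF motif CTTTGA was found for Lef1 and Bcl11b only among the 9 (18.2% of all genes), and the GATA motif AGATAA for Lef1 only (12.7%). These are matches of letters, not shown binding, and binding was not measured.

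Between 4479182 and 8180286 reads fell in genes in RNA-seq, and between 4069968 and 17859770 in footprints, the fewest in footprint KO replicate 3. In each assay a WT library and the KO library of the same number deviated from their group means in opposite directions, with r of -0.99 to -0.95 across genes, which are not independent replicates. For the 9 genes all 3 such pairs were opposed in 16 of 18 combinations of gene and assay. The spread within a group may therefore understate that between mice, so the adjusted p (FDR, edgeR) of a call of KO against WT is followed by that of a fit with the replicate number as a block. The defining thymocyte markers Cd3d, Cd3e, Cd3g, Lck, Thy1 and Cd2 summed to 3273 to 3646 CPM in RNA-seq and 6738 to 7375 CPM in footprints, and none was at 0.

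All 9 genes passed the filter on low counts in both assays. In RNA-seq 1 of the 9, Tcf7, was called at an FDR under 0.05, a fall, where 6.91% of all genes were called, 3.48% as higher and 3.43% as lower. With the replicate block none of the 9 was called (0.806% of all genes, 0.388% higher and 0.418% lower). In footprints 1 of the 9, Tcf12, was called, a rise, where 17.6% of all genes were called, 9.25% as higher and 8.34% as lower. With the block again none was (3.02% of all genes, 1.89% higher and 1.13% lower). The number of called members is thus close to the background of each assay. Libraries of the genotypes did not overlap for 4 of the 9 in RNA-seq, all lower in the libraries labelled KO (30.9% of all genes, 15.5% above and 15.4% below), and for 3 of the 9 in footprints, 1 higher and 2 lower (38.1% of all genes, 18.5% above and 19.6% below). The median log2 fold change of KO over WT over the 9 was -0.05 in RNA-seq and 0.07 in footprints, beside -0.0005616 and -0.01 over all genes tested.

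**Figure D1:**
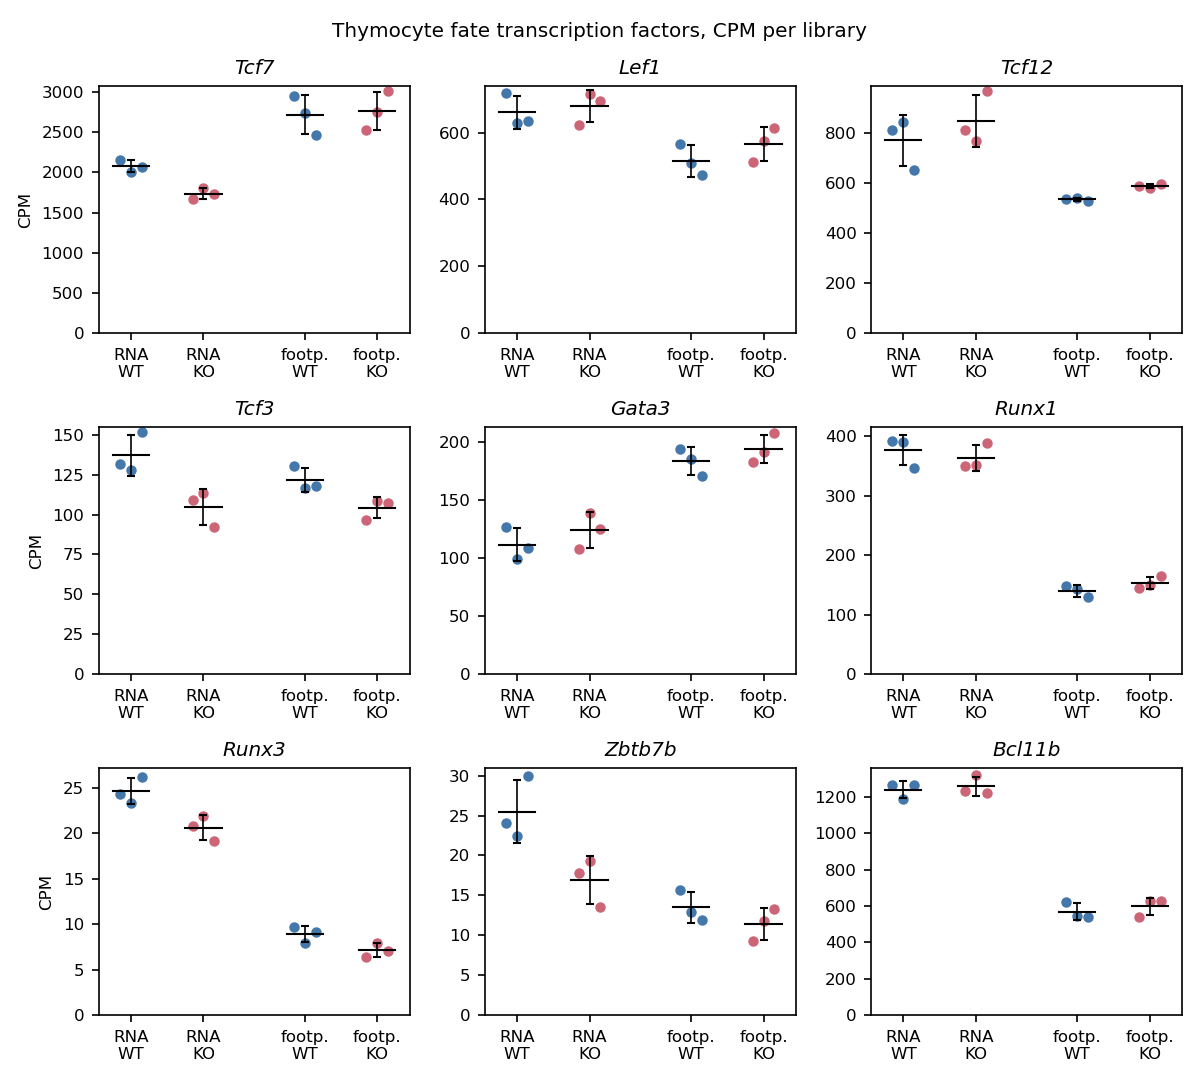
CPM of each of the 9 factors (vertical axes, linear from 0) in every library, blue for WT and red for KO, with RNA-seq on the left and footprints on the right of each panel. Horizontal lines are group means and bars are SDs (n = 3). The red points of Tcf7, Tcf3, Runx3 and Zbtb7b lie below the blue ones in RNA-seq, and in footprints those of Tcf12 lie just above.

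Of the HMG-box pair, Tcf7 was lower in RNA while its footprints overlapped between genotypes. Tcf7 (ENSMUSG00000000782.16) had 2160, 2006 and 2070 CPM in RNA-seq labelled WT and 1670, 1805 and 1726 CPM in those labelled KO. Every library labelled KO was thus below every library labelled WT, at a log2 fold change of -0.26 (SE 0.06, FDR 0.0477; with the block SE 0.13, FDR 0.563). The call was also lost under DESeq2 (adjusted p 0.0636), with no filter on low counts (0.0821) and without any 1 of the 6 libraries, at FDR 0.0861 to 0.164 and log2 fold changes of -0.29 to -0.23. The authors' deposited table lists Tcf7 as a significant fall in RNA-seq, with a log2 fold change of -0.25 and an adjusted p of 0.022.

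In footprints Tcf7 had 2953, 2741 and 2471 CPM in WT and 2534, 2748 and 3010 CPM in KO. These ranges overlap almost fully, and the log2 fold change was 0.02 (SE 0.09, FDR 0.898). Footprints relative to RNA, the genotype by assay term of a joint fit, changed by 0.28 on the log2 scale for Tcf7 (SE 0.11, p 0.0278 from edgeR, FDR 0.288, with the block 0.998), which is not a call. In that comparison 0.211% of genes were called (0.135% higher, 0.0759% lower), with the block within each assay 0.0169% and with the block by mouse 0.143%, and none of the 9 was in any of them, with 1 of the 9 at an unadjusted p under 0.05 in the first, where 14% of all genes were. DESeq2 called none of them either. RefSeq places Skp1, a gene for a ubiquitin ligase subunit, in overlap with Tcf7, and whether strand was used in counting is not given in the sources used here.

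Lef1 (ENSMUSG00000027985.14) did not pass the test in either assay. It had 717, 629 and 636 CPM in RNA-seq labelled WT and 624, 715 and 696 CPM in RNA-seq labelled KO, a log2 fold change of 0.04 (SE 0.08, FDR 0.821). Footprints of Lef1 were 565, 509 and 472 CPM in WT and 512, 575 and 613 CPM in KO, higher by 0.13 on the log2 scale (SE 0.09, FDR 0.349). Within a library the ratio of Tcf7 to Lef1 reads needs no scaling to the library total. Its log2 value was 1.66 ± 0.06 in RNA-seq labelled WT and 1.36 ± 0.06 in that labelled KO (SD, n = 3), a difference of -0.30. In footprints it was 2.402 ± 0.0248 in WT and 2.29 ± 0.03 in KO (SD, n = 3), a difference of -0.11. Neither ratio overlapped between genotypes. The exact two-sided permutation p was 0.1 each, the smallest that 3 against 3 libraries can give (0.125 adjusted over the 10 ratios computed). Permutation takes the libraries as exchangeable, which the opposed same-numbered libraries put in doubt, so each such p here is descriptive. Of the 10 ratios 8 did not overlap between genotypes, and the share among other gene pairs was not computed.

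Of the E protein genes, Tcf12 rose in footprints, a call that did not hold with the block, and Tcf3 lay lower in KO in both assays without being called. Tcf12 (ENSMUSG00000032228.16) had 535, 540 and 525 CPM of footprints in WT and 588, 581 and 595 CPM in KO. Those KO libraries were all above WT, by a narrow margin that exceeded the spread within groups, at a log2 fold change of 0.14 (SE 0.03, FDR 0.0289; with the block SE 0.08, FDR 0.446). DESeq2 (adjusted p 0.134), no filter on low counts (0.185) and the omission of any 1 of the 6 libraries (FDR 0.081 to 0.105, at 0.13 to 0.15) each ended the call. In RNA-seq Tcf12 had 811, 844 and 653 CPM labelled WT and 809, 765 and 964 CPM labelled KO, a log2 fold change of 0.14 (SE 0.13, FDR 0.565) with overlapping libraries. The authors' deposited table lists Tcf12 as a significant rise in footprints, with a log2 fold change of 0.14 and an adjusted p of 0.0431.

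Tcf3 (ENSMUSG00000020167.14) had 132, 128 and 152 CPM in RNA-seq labelled WT and 109, 113 and 92.0 CPM in that labelled KO. The libraries did not overlap, and the log2 fold change of -0.39 (SE 0.10, FDR 0.077; with the block 0.38) missed the threshold. It passed under DESeq2 (adjusted p 0.0434) and with no filter on low counts (0.049), and the authors' deposited table lists it as a significant fall (-0.35, adjusted p 0.0405). Footprints of Tcf3 were 131, 117 and 118 CPM in WT and 96.6, 109 and 107 CPM in KO. Here too every KO library was below WT, at a log2 fold change of -0.23 (SE 0.07, FDR 0.0627; with the block 0.282), and it passed with no filter on low counts alone (0.0459). The log2 ratio of Tcf12 to Tcf3 reads was 2.48 ± 0.33 in RNA-seq labelled WT and 3.01 ± 0.33 in that labelled KO, and 2.134 ± 0.0908 against 2.498 ± 0.0968 in footprints (SD, n = 3). The genotypes overlapped in neither assay (exact two-sided permutation p 0.1 each, 0.125 adjusted over 10 ratios).

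For the genes of the CD4+ fate, Gata3 stayed within the spread and Zbtb7b was lower in RNA without passing the test. Gata3 (ENSMUSG00000015619.10) had 127, 98.8 and 109 CPM in RNA-seq labelled WT and 108, 139 and 125 CPM in that labelled KO (log2 fold change 0.15, SE 0.12, FDR 0.526). Its footprints were 194, 186 and 170 CPM in WT and 183, 192 and 207 CPM in KO (0.07, SE 0.07, FDR 0.495). RefSeq lists the long noncoding RNA genes 4930412O13Rik and 9230102O04Rik in overlap with Gata3.

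Zbtb7b (ENSMUSG00000028042.15) had 24.1, 22.4 and 29.9 CPM in RNA-seq labelled WT and 17.8, 19.4 and 13.6 CPM in that labelled KO, from 531 and 313 reads. Every library labelled KO was lower, and the log2 fold change of -0.62 was the largest in size among the 9 genes in the 3 comparisons of KO with WT (SE 0.17, FDR 0.0822; with the block SE 0.21, FDR 0.32). It passed with no filter on low counts alone (FDR 0.0396). Footprints of Zbtb7b were 15.7, 13.0 and 11.9 CPM in WT and 9.26, 11.7 and 13.2 CPM in KO, with a log2 fold change of -0.29 (SE 0.15, FDR 0.238) with overlapping libraries. Within libraries the log2 ratio of Zbtb7b to Gata3 reads was lower in KO without overlap, by 0.75 in RNA-seq (difference -0.7474) and 0.33 in footprints (difference -0.3306), each at an exact permutation p of 0.1.

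Neither RUNX gene was called. Runx1 (ENSMUSG00000022952.17) had 393, 389 and 347 CPM in RNA-seq labelled WT and 349, 351 and 388 CPM in that labelled KO (log2 fold change -0.05, SE 0.07, FDR 0.719). Its footprints were 148, 142 and 129 CPM in WT and 144, 150 and 165 CPM in KO (0.12, SE 0.07, FDR 0.289). The genotypes overlap in both assays.

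Runx3 (ENSMUSG00000070691.10) was lower in KO in both assays without overlap, and did not pass the test. RNA-seq gave 24.4, 23.4 and 26.2 CPM labelled WT and 20.9, 21.9 and 19.1 CPM labelled KO, a log2 fold change of -0.27 (SE 0.08, FDR 0.12; with the block 0.725). Footprints gave 9.65, 7.98 and 9.17 CPM in WT and 6.39, 7.91 and 7.10 CPM in KO, -0.31 on the log2 scale (SE 0.12, FDR 0.131; with the block 0.486). These values rest on 409 footprint reads in WT and 220 in KO, with 29 in the shallowest library, and a change of this size did not pass at this depth. The log2 ratio of Runx1 to Runx3 reads was higher in KO footprints, 4.43 ± 0.16 against 3.97 ± 0.17 in WT (SD, n = 3), without overlap (exact permutation p 0.1). In RNA-seq it was 4.14 ± 0.18 labelled KO against 3.93 ± 0.18 labelled WT, with overlap (exact permutation p 0.4). The log2 ratio of Zbtb7b to Runx3, the opposed regulators of CD4+ and CD8+ fate, differed by -0.34 in RNA-seq without overlap (exact permutation p 0.1) and by 0.08 in footprints with overlap (p 0.6).

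Bcl11b (ENSMUSG00000048251.15) had the smallest fold change in RNA among the 9. It had 1264, 1189 and 1268 CPM labelled WT and 1235, 1319 and 1219 CPM labelled KO (log2 fold change 0.02, SE 0.06, FDR 0.874). Footprints were 622, 543 and 540 CPM in WT and 542, 625 and 625 CPM in KO (0.07, SE 0.08, FDR 0.603).

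**Figure D2:**
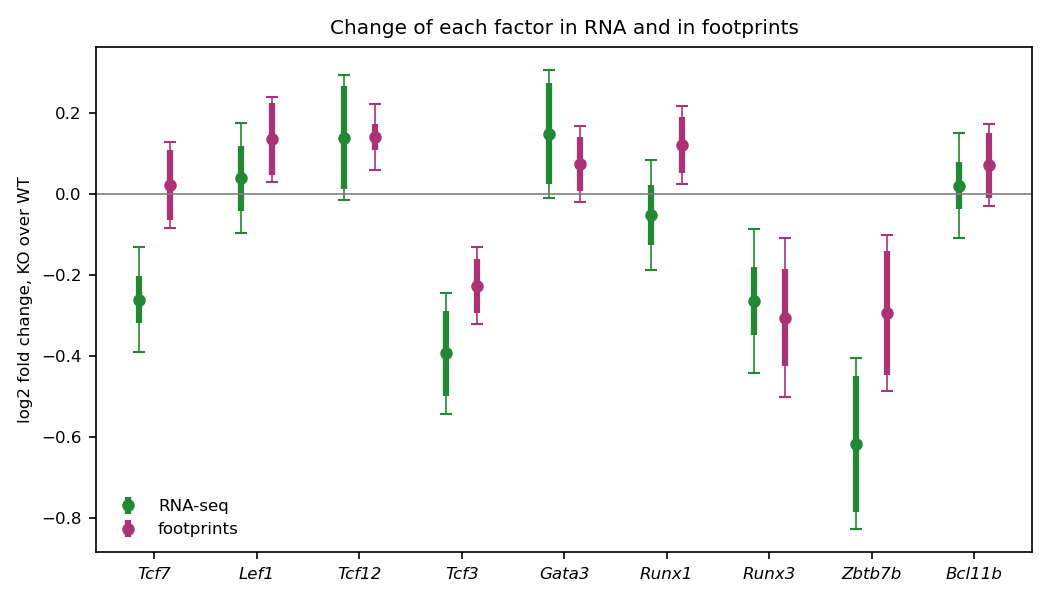
Log2 fold change of KO over WT (vertical axis) for each factor in RNA-seq (green) and footprints (purple). Thick bars are the SE without and thin bars the SE with the replicate block. Zbtb7b in RNA-seq lies lowest, at -0.62, and every thin bar is longer than the thick bar of the same point.

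How many footprints each transcript carried for its RNA was compared in WT, over 11474 genes. A footprint library samples mostly coding sequence whereas RNA reads cover whole transcripts, so the untranslated length of a gene enters this ratio; its part was not tested. Gata3 and Tcf7 had more footprints than RNA, with log2 ratios of footprint to RNA CPM of 0.69 (SE 0.09, FDR 9.44e-06) and 0.35 (SE 0.09, FDR 0.00198). The other 7 had fewer. Runx3 had -1.50 (SE 0.12, FDR 2.07e-08), Runx1 -1.46 (SE 0.08, FDR 6.96e-10) and Bcl11b -1.16 (SE 0.08, FDR 7.42e-09). Zbtb7b lay at -0.94, Tcf12 at -0.56, Lef1 at -0.39 and Tcf3 at -0.21 (FDR 0.0343).

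All 9 were called in this comparison, 2 as higher and 7 as lower, where 84.4% of all genes were called, 35.3% as higher and 49.1% as lower; with the block the 9 kept these directions and calls (85.2% of all genes, 35.7% higher and 49.5% lower). The call of Tcf3 was lost under DESeq2 (adjusted p 0.0503) and without RNA-seq WT replicate 3, footprint WT replicate 2 or footprint WT replicate 3 (FDR 0.106 to 0.126). Against the median of all genes, -0.24, Gata3 lay at percentile 76.3 and Tcf7 at 67.3, while Runx1 (17.8), Runx3 (17.1) and Bcl11b (24.0) lay in the lower part of the distribution. All 5 paralogs tested here were called as lower, namely Bcl11a at -1.60, Runx2 at -1.51, Tcf4 at -1.33, Zbtb7a at -0.98 and Tcf7l2 at -0.60. In this order Runx1 and Runx3 lay within 1 SE of each other, the other neighbours did not, and no difference between members was tested.

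**Figure D3:**
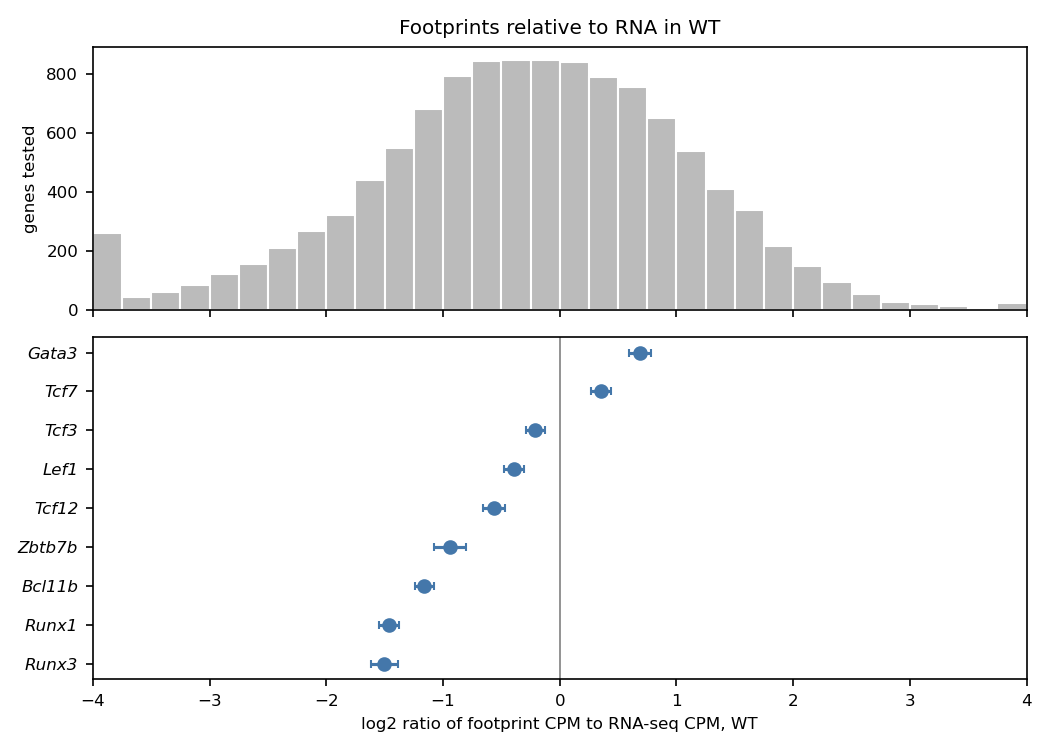
Top, number of genes tested by log2 ratio of footprint to RNA-seq CPM in WT, in bins of 0.25, with genes beyond the axis counted in the end bins. Bottom, the same ratio for the 9 factors with its SE, from Runx3 at -1.50 to Gata3 at 0.69.

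Other genes around these factors were taken from lists written for this work. In footprints relative to RNA no gene of these lists was called as changed between genotypes (0.211% of all genes). With the block within each assay none was either (0.0169%). Of 8 paralogs, 6 were tested in footprints and 1 was called, near the 17.6% of all genes, and none with the block (3.02%). That gene was Tcf4, which encodes the E protein E2-2. It rose from 33.7, 38.0 and 40.3 CPM (lowest to highest) in WT to 46.2, 49.0 and 55.1 CPM in KO, by 0.42 on the log2 scale (SE 0.09, FDR 0.0269; with the block 0.107), and by 0.44 in RNA-seq (FDR 0.0364; with the block 0.274). Of 19 partners and inhibitors 18 were tested and 3 called, again near the 17.6% of all genes, and none with the block (3.02%). Ctnnb1, which encodes the TCF-1 and LEF-1 partner beta-catenin, fell from 866 ± 17.9 CPM in WT to 736 ± 16.7 CPM in KO (SD, n = 3), a log2 fold change of -0.23 (FDR 0.00822; with the block 0.193). Tle2, a Groucho corepressor gene, rose by 0.85 (FDR 0.0379; with the block 0.112) and Zfpm1, the gene of the GATA partner FOG-1, by 0.41 (FDR 0.00971; with the block 0.119). In RNA-seq Ctnnb1 was called as lower (-0.22, FDR 0.046; with the block 0.642) and Tle2 and Zfpm1 were not (-0.18 and -0.16). The E protein inhibitor genes Id2 and Id3 were not called in footprints, at -0.07 and 0.00 (0.002839), nor was Cbfb, the partner of RUNX proteins (-0.20, FDR 0.103).

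Of 26 other regulators of thymocyte fate, 25 were tested in footprints. Without the block 5 were called as higher and 1 as lower (9.25% and 8.34% of all genes), and with it 4 and 0 (1.89% and 1.13%). In RNA-seq 1 was called as higher and 2 as lower (3.48% and 3.43% of all genes), and none with the block (0.388% and 0.418%). Tox, whose product is needed for CD4+ development and for Zbtb7b expression, rose from 194, 214 and 216 CPM to 336, 338 and 372 CPM of footprints, a log2 fold change of 0.74 (SE 0.06, FDR 0.00118; with the block 0.00221). In RNA-seq Tox was higher by 0.68 without passing the test (FDR 0.0507; with the block 0.114). Egr1 and Nr4a1, which T cell receptor signals induce, rose by 0.57 (FDR 0.0319; with the block 0.0491) and 0.49 (0.016; 0.0437), and Foxp1, a forkhead factor of T cell quiescence, by 0.45 (0.00974; 0.0389). Egr1, Nr4a1 and Foxp1 were not called in RNA-seq (0.26, 0.01 and 0.20). For footprints relative to RNA no gene of this list was called, with or without the block. Patz1, which encodes the Cd8 regulator MAZR, fell by 0.23 in footprints (log2 fold change -0.2265, FDR 0.0109; with the block 0.21).

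Among genes tied to the CD8+ lineage, 4 of 9 tested were called as lower in footprints and none as higher (8.34% and 9.25% of all genes), and 2 as lower with the block (1.13% of all genes). In RNA-seq 7 were tested, of which 2 were called as lower (3.43% of all genes) and none with the block (0.418%). Itgae, which encodes the CD103 integrin chain and is a known RUNX3 target, fell from 67.6, 70.2 and 73.6 CPM to 37.0, 39.2 and 40.8 CPM of footprints (log2 fold change -0.84, SE 0.05, FDR 0.000412; with the block 0.00152) and by 0.98 in RNA-seq (log2 fold change -0.9824, FDR 0.016; with the block 0.0616). Ctsw, the gene of cathepsin W, fell from 48.7 ± 4.17 CPM of footprints in WT to 24.4 ± 2.26 CPM in KO (SD, n = 3), a log2 fold change of -0.98 (FDR 0.00189; with the block 0.00256). Nkg7, a gene of cytotoxic granules, was called at -0.75 (FDR 0.0354, with the block 0.0707). The granzyme gene Gzmb was called at -1.37 from 71 reads in WT and 18 in KO (FDR 0.0132, with the block 0.178). It had 1.43 to 1.62 CPM in WT and 0.245 to 0.741 CPM in KO. Gzmb thus passed the filter on low counts through its WT libraries, so its call is no support for a fall of the list. Cd8a and Cd8b1, the CD8 coreceptor genes, were not called, at 0.09 and -0.01. The median of the 9 tested genes, Gzmb among them, was -0.63, beside -0.01 over all genes.

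Of 6 genes tied to the CD4+ lineage, 3 were called as higher and 2 as lower in footprints (9.25% and 8.34% of all genes). With the block 1 and 2 were (1.89% and 1.13%). In RNA-seq none was called as higher and 2 as lower (3.48% and 3.43% of all genes), and with the block 0 and 1 (0.388% and 0.418%). For footprints relative to RNA none was called. Cd4 rose from 1949 ± 122.8 CPM in WT to 2896 ± 173.6 CPM in KO (SD, n = 3), by 0.57 on the log2 scale (FDR 0.00335; with the block 0.0121), and in RNA-seq it was higher by 0.19 without passing the test (FDR 0.0686). Cd28, a costimulatory receptor gene, and Cd5, which encodes a brake on T cell receptor signals, rose by 0.53 and 0.31 (FDR 0.0104 and 0.0265; with the block 0.0718 and 0.131). Il6ra, the interleukin-6 receptor gene, fell by 1.10 (log2 fold change -1.096, FDR 0.000235; with the block 0.0026) and the integrin gene Itgb3 by 0.63 (-0.631, FDR 0.0253; with the block 0.0458). The list named for CD4+ cells thus did not move in 1 direction in footprints, and its median there was -0.05.

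Of 10 targets of E proteins and TCF-1 in immature thymocytes, 3 were called as lower and none as higher in footprints (8.34% and 9.25% of all genes). With the block none was (1.13% and 1.89%). In RNA-seq none was called as lower and 1 as higher (3.43% and 3.48% of all genes), and none with the block (0.418% and 0.388%). Rag1, the recombinase gene, fell from 9930 ± 359.9 CPM in WT to 8050 ± 290.3 CPM in KO (SD, n = 3), a log2 fold change of -0.30 (FDR 0.00864; with the block 0.116). Ptcra, which encodes the pre-T cell receptor alpha chain, and Myc were called at -0.37 and -0.19 (FDR 0.0293 and 0.00917; with the block 0.155 and 0.289).

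**Figure D4:**
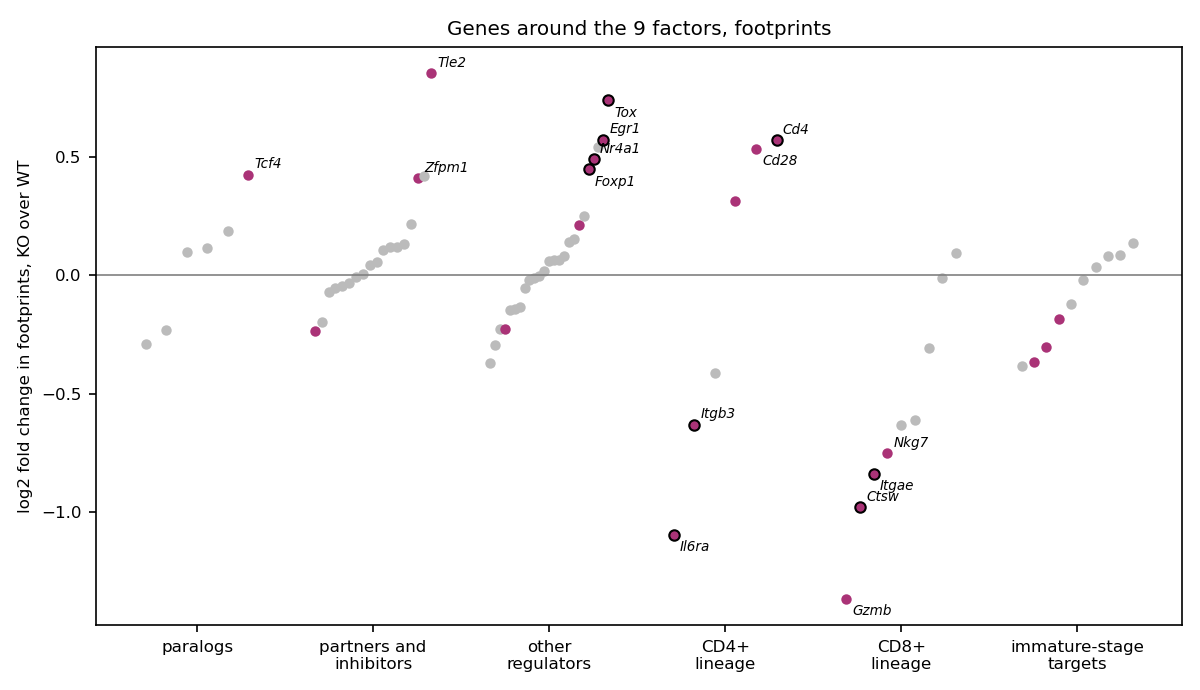
Log2 fold change in footprints, KO over WT (vertical axis), for the tested genes of 6 lists around the factors, sorted within each list. Purple points have an FDR under 0.05, points with a black rim also with the replicate block, and grey points are not called; labels mark called genes beyond 0.4 in size. Tox and Cd4 lie at 0.74 and 0.57, and the called genes of the CD8+ list lie between -1.37 and -0.75. The lowest of these, Gzmb, passed the filter on low counts through its WT libraries.

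In bulk thymus fewer cells of a type and less RNA per cell cannot be told apart. Markers of mature single-positive cells summed to 373 to 384 CPM in RNA-seq labelled WT and 359 to 362 CPM in that labelled KO. There 2 of 6, Ccr7 and Klf2, were called as lower (3.43% of all genes) and none with the block (0.418%). In footprints the 6 markers summed to 645 to 712 CPM in WT and 655 to 719 CPM in KO. Of these 1 was called as higher and 1 as lower (9.25% and 8.34% of all genes), and none with the block. Markers of double-negative cells summed to 461 to 542 CPM in RNA-seq labelled WT and 507 to 595 CPM in that labelled KO, and to 796 to 828 and 877 to 907 CPM in footprints, where the genotypes did not overlap. Markers of double-positive cells, whose genes also stand in the lists above, summed to 11080 to 12300 CPM in RNA-seq labelled WT and 10470 to 11330 CPM in that labelled KO, and to 20110 to 20900 and 19330 to 20070 CPM in footprints. Myeloid and dendritic markers summed to 314 to 358 CPM in WT and 308 to 358 CPM in KO footprints. Among them Siglech, a marker of plasmacytoid dendritic cells, was called as lower, from 10.5 ± 1.55 to 4.84 ± 1.22 CPM of footprints (SD, n = 3; FDR 0.0126; with the block 0.0443) and from 4.54 ± 0.45 to 2.21 ± 0.34 CPM in RNA-seq (SD, n = 3; FDR 0.0165; with the block 0.275). B cell markers summed to 43.9 to 58.6 and 56.6 to 76.7 CPM of footprints, with Cd79b called as higher (0.48, FDR 0.00416; with the block 0.0465). Epithelial and stromal markers summed to 260 to 302 and 272 to 326 CPM of footprints, and in RNA-seq to 218 to 222 CPM labelled WT and 242 to 248 CPM labelled KO, without overlap. Erythroid markers summed to 75.8 to 90.6 CPM in RNA-seq labelled WT and 46.5 to 58.2 CPM in that labelled KO, and to 40.6 to 75.5 and 34.7 to 74.0 CPM in footprints. The part of cell composition in the changes of the factors and their target lists was not tested.

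Genes most like the called members were sought among 8089 genes by the distance in 3 values, namely the log2 fold change in RNA-seq, that in footprints and the WT ratio of footprints to RNA, each over the same libraries. Nearest to Tcf7 were Gga1 (RNA -0.28, footprints 0.00, that is 0.0003505, WT ratio 0.40) and Riox2 (-0.24, 0.04 and 0.41). Nearest to Tcf12 were Btg2 (0.15, 0.13 and -0.55) and Hivep2 (0.15, 0.13 and -0.59).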

How the data were processed

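The authors deposited read counts for 55335 Ensembl genes, in whole numbers and a separate table for each assay. They named them adjusted counts; what was adjusted is not stated. Per the submitters' processing notes, FastQC, Bowtie2 2.5.1, STAR 2.7.10a, HTSeq 2.0.3 and DESeq2 1.40.2 were used; the sources used here give no genome build, annotation or strand setting. Rows that name no gene were left out, so that 27.0% to 28.5% of RNA-seq and 72.3% to 73.1% of footprint reads remained. Replicates are mice, 3 per genotype per the series' design text, and p-values measure the spread between their libraries. The authors' deposited tables of KO against WT (log2 fold changes and adjusted p-values) were copied, and their 12 columns of per-library values were not used. Gene IDs were matched to symbols, for Tcf7 without the ID's version.

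The assays were fitted separately by edgeR 4.0.16 under R 4.3.3 (TMM, filterByExpr with a minimum count of 10, quasi-likelihood test, Benjamini-Hochberg over all genes tested); the SE is the log2 fold change over the square root of F. Translation was the interaction of genotype and assay over 12 libraries with TMM factors within each assay, and footprints were set against RNA in WT the same way. Alternatives were the replicate number as a block, RLE factors, DESeq2 1.42.0, all genes without a count filter, and each library left out in turn. On simulated counts with 200 genes changed 2-fold, not adjusted by replicate number, 100% were recovered in RNA-seq with 12 false calls, 99.5% in footprints with 8, 89.9% of 199 tested for translation with 8 and 100% for footprints against RNA with 13.

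Members and lists were chosen with earlier results of these data known, and lists are described by counts and medians. Every member is named. Of each list of paralogs, partners, regulators and targets, every gene called in footprints is named, or the 5 with the largest change; members called without the block got their 2 nearest genes among genes whose mean log2 CPM was 3 or more in both assays. Id2, Id3, Cbfb, Runx2, Cd8a, Cd8b1, Ccr7, Klf2, Il2ra, Siglech, Cd79b, Bcl11a, Zbtb7a and Tcf7l2 are named outside that rule, after their values were seen; markers are given by their sums, and some called genes are not reported here. No libraries of a group were duplicates (chi-square per degree of freedom 3.41 to 12.9).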

Additional observations from a re-analysis of the deposited data

How the results depend on the processing

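The counts of calls depended on the spread assumed. With the replicate block 110 of the 943 calls remained in RNA-seq and 408 of the 2376 in footprints, with none added. For translation 2 of 25 remained with the block within each assay; with the block by mouse there were 17, of which 9 were shared. Same-numbered WT and KO libraries were opposed in both assays. Whether the numbers pair a WT with a KO mouse is not stated, and the cause of the opposition was not tested. No member kept or gained a call of KO against WT with the block. DESeq2 gave 532, 1235 and 55 calls. With 1 library left out the counts ranged from 215 (without RNA-seq WT replicate 1) to 323 (without KO replicate 2) in RNA-seq, from 1035 (without KO replicate 2) to 1554 (without KO replicate 3) in footprints and for translation from 6, without KO replicate 1 or KO replicate 2 of footprints, to 23, without WT replicate 2 of RNA-seq. These fits had fewer samples; the cause was not tested. RLE factors and no low-count filter kept these 3 counts within 1.5 times, and every alternative kept that of footprints against RNA in WT.

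Of the members' values under alternatives, 381 kept direction and call, 22 lost a call, 4 gained one and 16 changed sign. The sign changes were all in values near 0 that were not called: with 1 library left out, Bcl11b ranged from -0.01858 to 0.03639 and Lef1 from -0.003957 to 0.09695 in RNA-seq, and Tcf7 from -0.04662 to 0.08694 in footprints. For translation Tcf12 ranged from -0.07101 to 0.1022, Gata3 from -0.1738 to 0.01051 and Runx3 from -0.1656 to 0.05256, and Tcf12 gave 0.0008659 with the block by mouse. Beside these, the footprint ratio of Zbtb7b to Runx3 changed sign without WT or KO replicate 3, in a range of -0.03866 to 0.1421. Runx3 and Zbtb7b had the fewest footprint reads of the 9, 220 and 335 in KO, which limits their precision.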

Other observations

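Of the markers summed above, Il2ra of the double-negative list changed in both assays. More values of Ccr7, of the mature single-positive list, also follow. Il2ra was the only marker of its list that was called in either assay. Il2ra, which encodes CD25 of early thymocytes and regulatory T cells, rose from 47.2, 55.7 and 55.8 CPM (lowest to highest) in RNA-seq labelled WT to 90.4, 90.7 and 104 CPM in that labelled KO, a log2 fold change of 0.85 (edgeR FDR 0.00674; with the replicate block 0.0198). In footprints Il2ra rose from 92.6 ± 1.62 to 120 ± 2.47 CPM (SD, n = 3; 0.38, FDR 0.00159; with the block 0.0445). Ccr7, the chemokine receptor gene of mature thymocytes, fell in RNA-seq from 41.1 ± 1.70 to 26.3 ± 1.22 CPM (SD, n = 3; -0.64, FDR 0.00621; with the block 0.11) and was not called in footprints (-0.10, FDR 0.309). Il2ra and Ccr7 were chosen after their values were seen.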
